A study of Mus musculus with 3 samples.

Results

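Droplets rich in the transcripts of mature muscle fibres were examined in single-cell RNA sequencing libraries of regenerating mouse tibialis anterior muscle. A cell barcode was counted as a fibre droplet when it had at least 500 detected genes, under 10% mitochondrial UMIs, at least 10% of its UMIs from Acta1, Ckm, Myh4, Tnnt3 and Mylpf together, and fewer than 2 UMIs of Myog. UMIs are unique molecular identifiers, each counting 1 captured RNA molecule. The rule found 486 fibre droplets among 35247 kept cells, which are the barcodes that met the gene and mitochondrial conditions, out of 38748 barcodes in all. They were chosen by measured expression, so levels of the 5 rule genes in them are a description. The label fits the wider marker set, since Pvalb and Tcap, which the rule did not use, had UMIs in nearly all of them: 29 and 30 of 30 fibre droplets of young PBS, 337 and 341 of 347 of old PBS, then 103 and 107 of 109 of old rMETRNL.

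The study asked how injured muscle differs with age and after recombinant meteorin-like protein (rMETRNL), a secreted factor, is given. All mice were C57/BL6J, and all muscles were injured with barium chloride (BaCl2), a myotoxic salt, and collected 4 days later. Young PBS mice were 3 to 4 months old and old PBS mice 24 to 26 months old, and both received saline in the injured muscle. Old rMETRNL mice were also 24 to 26 months old and received the protein instead. Per the study's methods each group was a pool of 3 muscle samples run as 1 library. The groups therefore have no replicates and are not tested against each other, and the exact 95% intervals given cover counting error only. Muscles were minced, digested and strained before loading. Of the barcode sequences, 80 occurred in both young PBS and old PBS, 58 in both young PBS and old rMETRNL, and 76 in both old libraries, but none of the fibre droplets' barcodes was shared between libraries. Where 3 values are given without names, they belong to young PBS, then to old PBS, then to old rMETRNL. Doublet scoring marked 0, 3 and 0 fibre droplets, and these were kept.

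A muscle fibre is a long syncytium with many nuclei, packed with sarcomeres in which myosin thick filaments slide along actin thin filaments. Adult mouse fibres differ by the myosin heavy chain they use: Myh4 (type 2B) in the fastest, glycolytic fibres, Myh1 (type 2X) and Myh2 (type 2A) in fast fibres with more mitochondria, and Myh7 in slow fibres, while Myh3 and Myh8 are the embryonic and perinatal chains of newly formed fibres. The tibialis anterior is a mostly fast muscle, and after BaCl2 its fibres die and are rebuilt from satellite cells, which express Pax7 and Myf5 and then Myog as they differentiate and fuse.

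The proximal promoters of the rule genes and of Myh1 are printed because these genes decide which droplets were taken and how they were typed. Sequences are from RefSeq (GRCm38.p6), cover 250 bases before to 50 after the annotated start of the gene, and read 5′ to 3′ on the gene's strand. Capitals mark CANNTG, the E-box motif that myogenic factors such as Myog and Myf6 can bind. The windows are Acta1 at chr8:123894726-123895025 (minus strand), Ckm at chr7:19410844-19411143 (plus), Myh4 at chr11:67237562-67237861 (plus), Mylpf at chr7:127211358-127211657 (plus) and Myh1 at chr11:67199852-67200151 (plus). Tnnt3 had no entry in the table.
Acta1: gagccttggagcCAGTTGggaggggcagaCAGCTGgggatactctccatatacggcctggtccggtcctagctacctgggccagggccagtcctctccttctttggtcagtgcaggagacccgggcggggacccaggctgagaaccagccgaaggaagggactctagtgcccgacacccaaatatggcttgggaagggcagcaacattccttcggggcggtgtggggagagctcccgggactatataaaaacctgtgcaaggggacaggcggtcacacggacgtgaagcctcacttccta
Ckm: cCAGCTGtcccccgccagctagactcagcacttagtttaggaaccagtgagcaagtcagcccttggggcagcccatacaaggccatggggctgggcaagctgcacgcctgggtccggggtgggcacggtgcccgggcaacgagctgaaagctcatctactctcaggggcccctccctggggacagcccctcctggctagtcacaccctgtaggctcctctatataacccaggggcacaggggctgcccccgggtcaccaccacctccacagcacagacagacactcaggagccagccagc
Myh4: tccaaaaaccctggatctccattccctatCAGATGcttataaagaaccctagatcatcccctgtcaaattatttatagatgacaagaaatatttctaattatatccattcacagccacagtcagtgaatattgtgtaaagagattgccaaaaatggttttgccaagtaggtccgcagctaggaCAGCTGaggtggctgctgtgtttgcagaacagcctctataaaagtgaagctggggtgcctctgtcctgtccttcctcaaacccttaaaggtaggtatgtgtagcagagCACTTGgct
Mylpf: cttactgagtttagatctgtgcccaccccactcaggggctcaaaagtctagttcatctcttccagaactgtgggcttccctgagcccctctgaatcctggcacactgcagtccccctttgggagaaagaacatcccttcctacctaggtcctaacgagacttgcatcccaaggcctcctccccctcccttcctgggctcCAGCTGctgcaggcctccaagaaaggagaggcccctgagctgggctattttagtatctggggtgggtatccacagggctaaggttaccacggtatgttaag
Myh1: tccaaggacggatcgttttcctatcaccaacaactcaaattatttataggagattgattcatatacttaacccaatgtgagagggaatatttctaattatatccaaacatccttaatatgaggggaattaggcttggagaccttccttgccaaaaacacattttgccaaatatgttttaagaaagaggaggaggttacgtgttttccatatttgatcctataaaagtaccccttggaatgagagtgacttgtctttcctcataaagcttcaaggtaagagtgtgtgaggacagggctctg
On both strands, CANNTG was present in 72.3% of all 32851 promoter windows of this length, its case CAGCTG in 16.3%, the box TATAAA in 13.6%, the MEF2 box in 3.19% and the CArG box in 1.63%. Of 18 genes sought, 13 had an entry, of which 10 held CANNTG, 7 CAGCTG, 5 TATAAA, 3 a MEF2 box and 2 a CArG box. Myh4 held 3 CANNTG motifs, a MEF2 box and a CArG box, whereas Myh1 held a MEF2 box and no CANNTG. A match is a description of the letters only.

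Fibre droplets were far more frequent in old PBS than in the other libraries. In young PBS they were 30 of 11403 kept cells, a share of 0.263% (0.178 to 0.375). Old PBS had 347 of 11058, or 3.14% (2.82 to 3.48), and old rMETRNL had 109 of 12786, or 0.852% (0.7005 to 1.03). The share in old PBS was 11.9 times that in young PBS (8.20 to 17.9), and the share in old rMETRNL was 0.272 times that in old PBS (0.217 to 0.338) and 3.24 times that in young PBS (2.15 to 5.03). These ratios share libraries. How much of the fibre material of a muscle enters such a suspension was not measured.

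Every barcode above the 10% level was accounted for. Without the gene, mitochondrial and Myog conditions, 45, 464 and 155 barcodes passed, or 0.370%, 3.69% and 1.11% of all barcodes, with ratios of 9.98 (7.34 to 13.9) for old PBS over young PBS and 0.2996 (0.248 to 0.360) for old rMETRNL over old PBS. Of these, 15, 113 and 45 had under 500 genes, 0, 2 and 1 had only too high a mitochondrial share, and 0, 2 and 0 had at least 2 Myog UMIs. Just inside the level, at 10 to 11%, lay 2, 30 and 8 fibre droplets, and just outside, at 9 to 10%, lay 1, 31 and 7 kept cells. The lowest values inside were 10.7%, 10.1% and 10.03%, and the highest outside were 9.56%, 9.95% and 9.85%. The share of UMIs from rule genes had a median of 14.1%, 13.7% and 14.5% in fibre droplets and reached 19.5%, 32.4% and 20.999%.

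**Figure D1:**
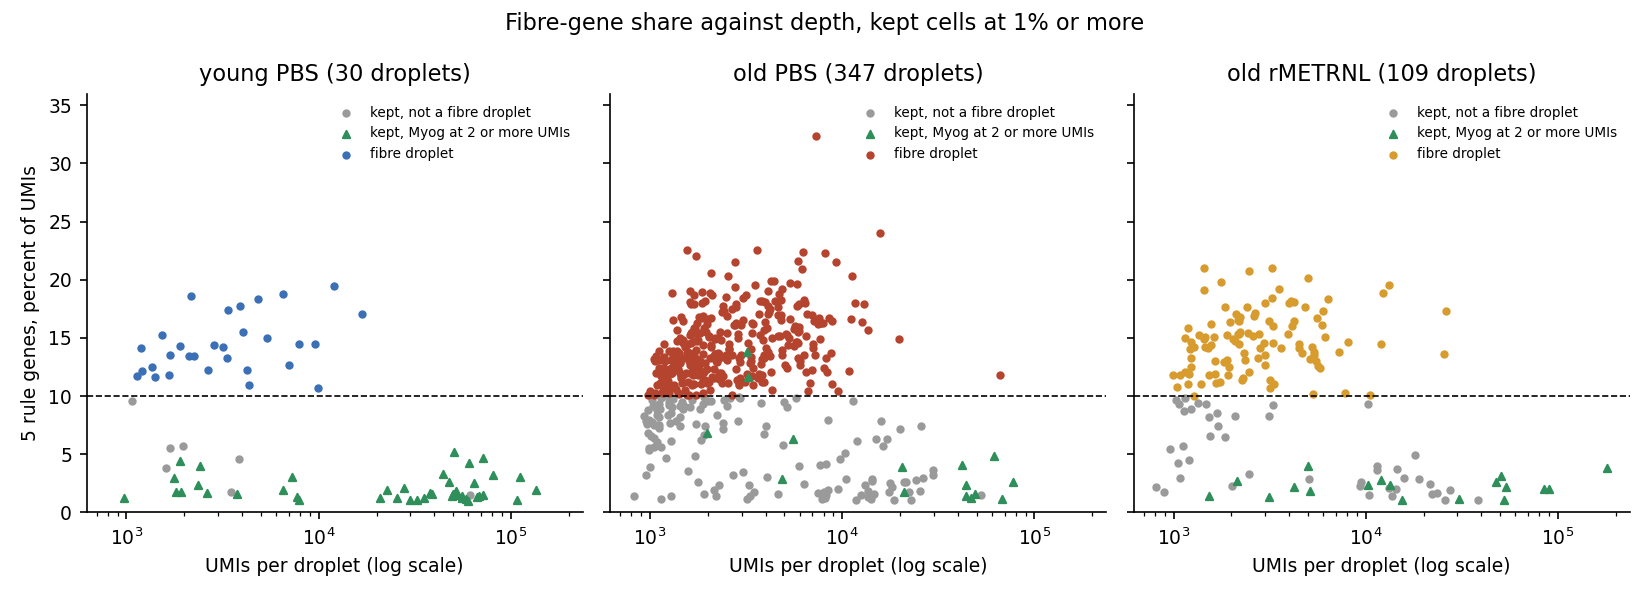
Kept cells with at least 1% of UMIs from the 5 rule genes, by UMI count (log axis) and that percent, with a panel for each library (young PBS at the left, old rMETRNL at the right). Fibre droplets lie above 10%, at 14.1%, 13.7% and 14.5% in the median, and at lower UMI counts than most other cells.

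The cells of the myogenic line, by contrast, were least frequent in old PBS. Cells with at least 2 Myog UMIs, the stage of differentiation before fibres form, were most frequent in young PBS at 2.14% (1.88 to 2.42), followed by old rMETRNL at 1.59% (1.38 to 1.82) and old PBS at 0.877% (0.712 to 1.07). Their ratio was 0.410 (0.321 to 0.521) for old PBS over young PBS and 1.81 (1.41 to 2.33) for old rMETRNL over old PBS. Cells with at least 2 UMIs of Pax7 and Myf5 together and no such Myog level made up 2.58%, 1.26% and 2.21%. Their ratios for the same contrasts were 0.488 (0.396 to 0.599) and 1.75 (1.43 to 2.17). For old rMETRNL over young PBS their ratio was 0.855 (0.724 to 1.01), an interval that does not separate these 2 libraries. Thus the library with the highest share of fibre droplets had the lowest shares of both. Young PBS, with the lowest share of fibre droplets, had the highest share of Myog-positive cells.

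**Figure D2:**
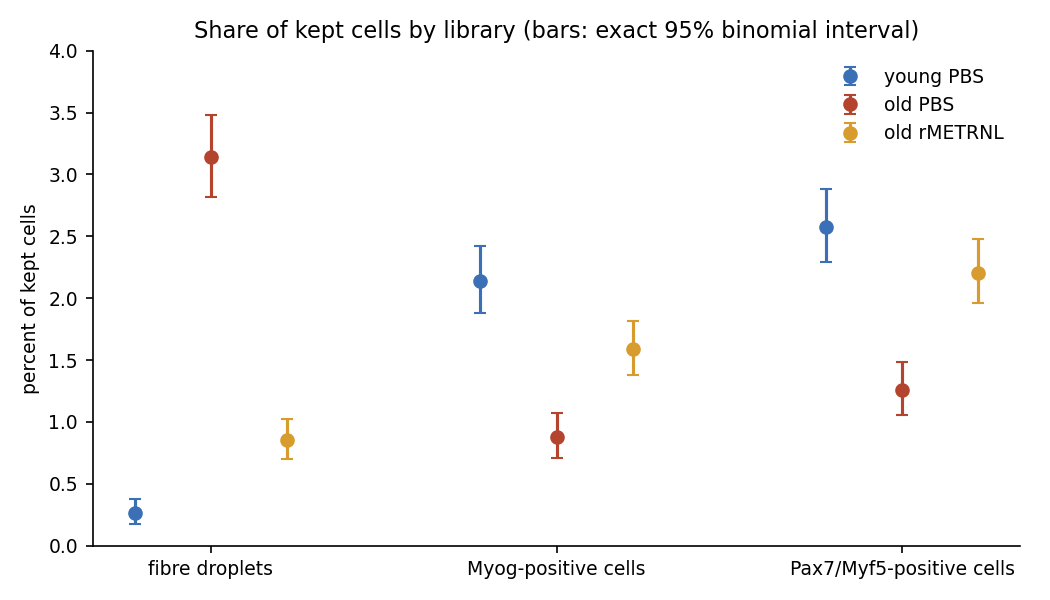
Percent of kept cells that were fibre droplets, Myog-positive cells or Pax7/Myf5-positive cells in each library, with exact 95% binomial intervals for counting error only. Fibre droplets were highest in old PBS at 3.14% and lowest in young PBS at 0.263%, whereas Myog-positive cells were lowest in old PBS at 0.877%.

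RNA of the rule genes was also more frequent outside the fibre droplets in old PBS. Among kept cells with under 1% of UMIs from rule genes and no Myog UMI, rule genes supplied 0.0144% of UMIs in old PBS (0.0142 to 0.0146), 0.00649% in old rMETRNL (0.00638 to 0.00660) and 0.00465% in young PBS (0.00455 to 0.00475). At least 1 such UMI was found in 36.4%, 74.4% and 46.8% of the 10462, 10047 and 11908 such cells of young PBS, of old PBS, then of old rMETRNL. The order of the libraries was the same as for the share of fibre droplets. These cells were chosen by their level of the same rule genes and came from the same suspensions. The order is therefore a description and not a separate test of that share.

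Fibre droplets held little RNA compared with other cells. Per library, the median fibre droplet had 3238, 2254 and 2454 UMIs, against 15636, 14278 and 14795 in all other kept cells and 40049, 26241 and 32051 in Myog-positive cells. The counts ranged from 1129 to 16716, from 978 to 66393 and from 992 to 26273, with 9, 150 and 38 fibre droplets under 2000 UMIs and 2, 10 and 6 above 10000. The median number of detected genes was 1003, 813 and 859. All fibre droplets together held 131392, 1202449 and 401897 UMIs, which is 0.0612%, 0.686% and 0.178% of the UMIs of kept cells.

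Mitochondrial and nuclear transcripts were scarce in them. The median mitochondrial share was 0.0798%, 0.144% and 0.152% in fibre droplets, against 2.94%, 3.20% and 2.85% in other kept cells and 4.62%, 5.07% and 4.21% in Myog-positive cells. Under 1% mitochondrial UMIs were seen in 27 of 30, 316 of 347 and 94 of 109 fibre droplets, but in only 3.24%, 3.52% and 3.81% of other kept cells. Other kept cells with under 5000 UMIs had medians of 2.76%, 2.51% and 2.06%. Malat1, a long non-coding RNA held in the nucleus, had no UMI in 43.3%, 40.6% and 38.5% of fibre droplets and in 1.24%, 1.34% and 0.907% of other kept cells. After each cell was thinned to 1000 UMIs, Malat1 was found in 26.7%, 30.1% and 32.4% of fibre droplets and in 97.6%, 98.0% and 97.2% of other cells. Ribosomal protein genes supplied 11.9%, 11.96% and 10.9% of UMIs in fibre droplets and 17.8%, 15.7% and 17.1% in other kept cells. In contrast, Gm42418, a transcript that overlaps ribosomal RNA, was higher in fibre droplets, with medians of 2.91%, 5.07% and 3.35% against 1.38%, 2.35% and 1.38%.

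**Figure D3:**
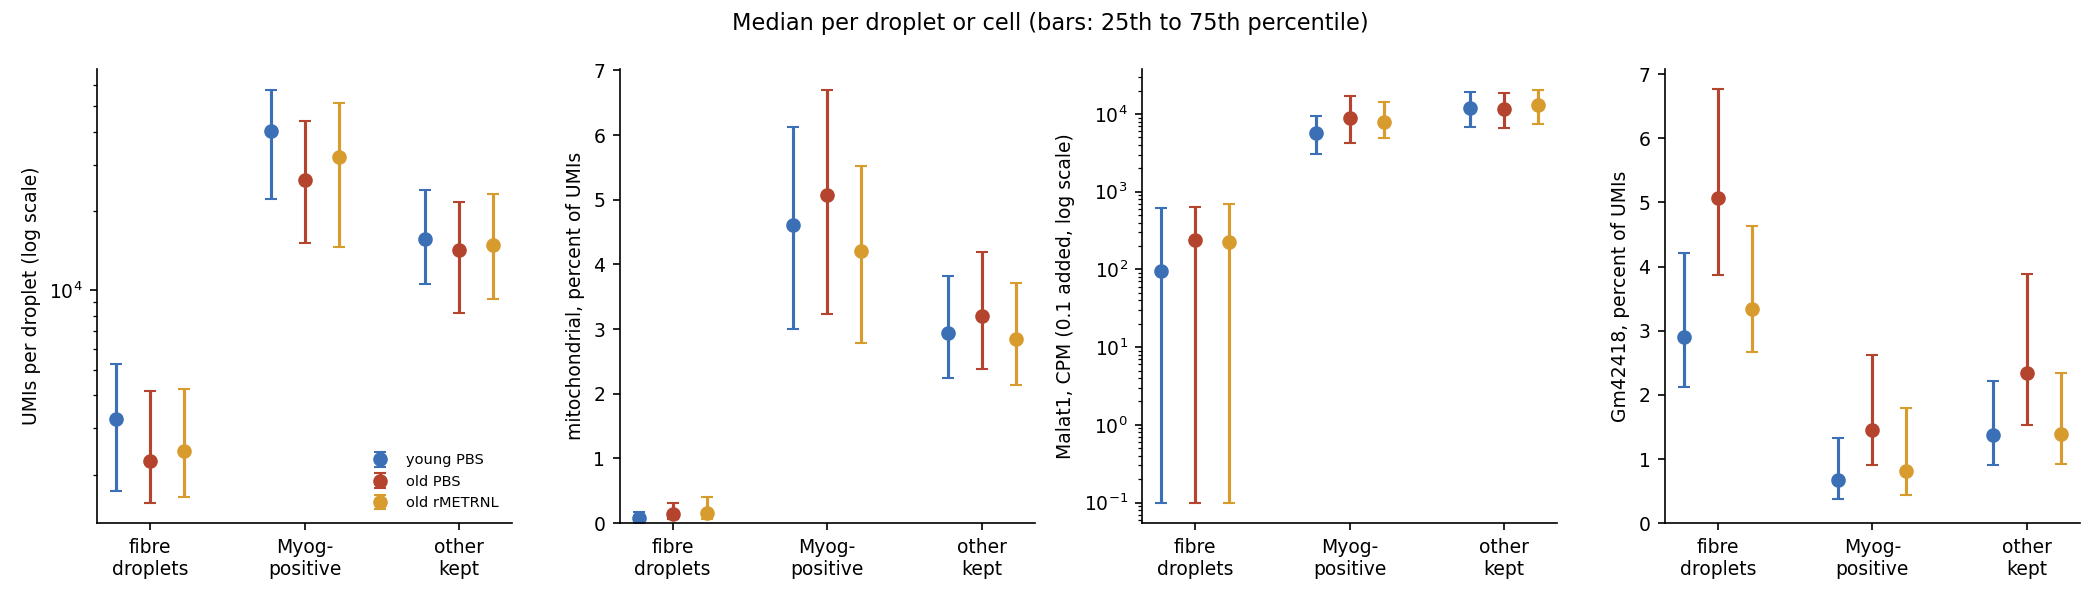
Median and quartiles per cell of the UMI count, mitochondrial percent, Malat1 in CPM and Gm42418 percent, for fibre droplets, Myog-positive cells and other kept cells of each library. Fibre droplets had the lowest mitochondrial medians of the 3 classes, between 0.0798% and 0.152%.

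Macrophage and progenitor transcripts were present at a small share of their level in other cells, and some rarer cell types' transcripts at a larger one. Levels are given in CPM (counts scaled to a common total), that is, UMIs per 1000000 UMIs summed over the fibre droplets of a library, with no correction for gene length. The 15 macrophage and monocyte markers summed to 1378, 2003 and 1607 CPM, or 4.25%, 5.38% and 4.98% of their level in other kept cells, with 2, 0 and 0 of them at 0. Apoe and Lyz2, abundant macrophage transcripts, stood at 419, 827 and 592 CPM and at 396, 427 and 428 CPM. The 12 markers of fibro/adipogenic progenitors summed to 304, 552 and 401 CPM (2.43%, 4.88% and 3.50%), with 5, 0 and 1 at 0. Endothelial markers summed to 419, 340.1 and 159 CPM (31.4%, 29.7% and 12.1% of their level in other kept cells), tenocyte markers to 114, 202 and 149 CPM (19.1%, 48.4% and 29.98%), pericyte markers to 30.4, 53.2 and 34.8 CPM (11.1%, 27.0% and 16.0%) and red blood cell genes to 98.9, 123 and 107 CPM (49.3%, 78.1% and 52.6%). The remaining sums were small: dendritic cell 38.1, 77.3 and 82.1, neutrophil 22.8, 3.33 and 4.98, T and NK cell 7.61, 0.832 and 4.98, and Schwann 0, 5.82 and 4.98. Of the satellite cell and myoblast markers, Des, a filament gene that fibres also express, gave 575 of 580, 6042 of 6121 and 1795 of 1810 UMIs. The summed macrophage and progenitor levels were highest in old PBS, as were several genes described below, although the median over macrophage markers for old PBS over young PBS (log2 0.44) turned to -0.27 without the 5 deepest fibre droplets. Their part in those results was not tested.

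Fast sarcomere genes were among the most abundant transcripts of the fibre droplets in all 3 libraries, which the rule itself partly sets. The 12 fast isoforms, with the rule genes Tnnt3 and Mylpf among them, summed to 196039, 193428 and 188680 CPM. The rule genes together supplied 15.1%, 15.03% and 15.1% of UMIs. Acta1, the skeletal muscle actin, had 6849, 62853 and 21538 UMIs, and among the genes the rule did not use the fast troponin C gene Tnnc2 stood at 31790, 29957 and 29968 CPM. The fast myosin light chain gene Myl1 stood at 31570, 29521 and 29346 CPM, the fast inhibitory troponin gene Tnni2 at 21280, 19926 and 21451 CPM, and the glycolytic enzyme Aldoa at 16028, 15926 and 14899 CPM. The libraries lay close to each other for these genes. Pvalb, the calcium buffer parvalbumin of fast fibres, stood at 4742, 5486 and 5447 CPM, with ratios of 1.16 and 0.993 for old PBS over young PBS and old rMETRNL over old PBS. Its level in other kept cells was 0.578, 14.7 and 3.29 CPM. Tcap, the titin cap protein of the Z disc, stood at 4597, 3803 and 4046 CPM. After thinning to 1000 UMIs, Pvalb was found in 90.0%, 92.8% and 88.0% of fibre droplets and Tcap in 93.3%, 93.6% and 95.4%.

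All fibre droplets that could be typed were dominated by a fast adult myosin, Myh4, Myh1 or Myh2, and the balance of these differed between libraries. The rule itself selected on fast isoforms, and 6 of 30, 31 of 347 and 17 of 109 droplets had too few myosin UMIs to be typed. A droplet was typed by the gene that gave at least 50% of its Myh1, Myh2, Myh4 and Myh7 UMIs, where it had at least 3 of these, as 24, 316 and 92 droplets did. Since Myh4 was a rule gene and Myh1 was not, the shares are a description. Myh4 was dominant in 14 of 24 typed droplets of young PBS (58.3%, 36.6 to 77.9), 262 of 316 of old PBS (82.9%, 78.3 to 86.9), then 63 of 92 of old rMETRNL (68.5%, 58.0 to 77.8). Myh1 was dominant in 37.5% (18.8 to 59.4), 16.1% (12.3 to 20.7) and 28.3% (19.4 to 38.6). Myh2 was dominant in 1, 3 and 3 droplets and Myh7 had no UMI. No droplet of the 24, 317 and 92 that could be judged was dominated by the developmental genes Myh3 and Myh8, which allows shares of up to 12.5%, 0.946% and 3.26%, and any UMI of these genes was seen in 2, 8 and 2 droplets. In Myog-positive cells, by contrast, Myh3 and Myh8 gave 91.9%, 87.5% and 88.8% of myosin heavy chain UMIs.

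Most droplets carried 1 myosin. Over 80% of typing UMIs came from 1 gene in 18 of 24, 280 of 316 and 75 of 92 typed droplets, while 6, 53 and 19 droplets had at least 2 UMIs of both Myh1 and Myh4. Summed over fibre droplets, Myh4 stood at 1941 CPM (1710 to 2194), 5367 (5237 to 5500) and 5277 (5055 to 5507), and Myh1 at 1393, 1092 and 1637 CPM. Myh4 gave 56.8%, 81.4% and 75.5% of all myosin heavy chain UMIs. The order was the same for these adult myosins in the other kept cells with under 1% from rule genes. Of the Myh1, Myh2 and Myh4 UMIs there, Myh4 gave 75.02% (72.5 to 77.5) in old PBS. It gave 68.6% (64.1 to 72.8) in old rMETRNL and 34.6% (28.5 to 41.1) in young PBS. The intervals of old PBS and old rMETRNL overlapped slightly, and that of young PBS lay apart from both. These shares leave out Myh3, which had 336, 170 and 187 UMIs in those cells but few in fibre droplets. Since Myh4 is a rule gene, the order is a description.

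**Figure D4:**
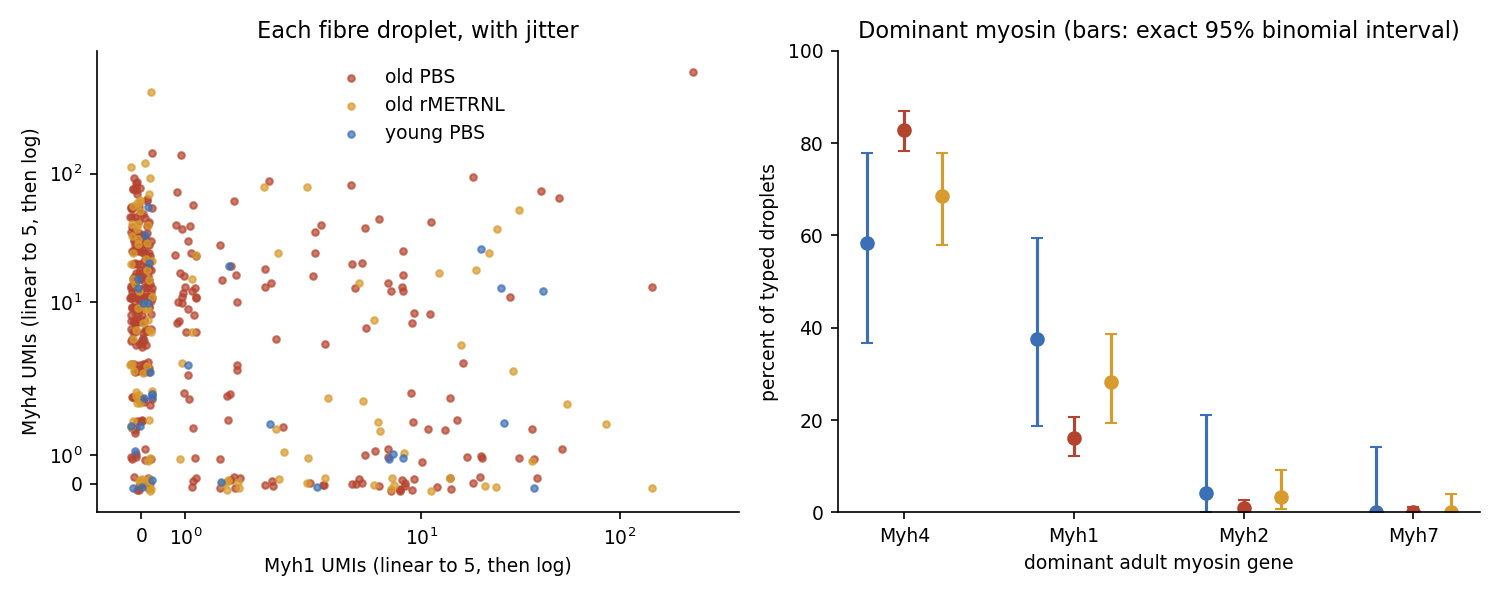
Left panel, Myh4 against Myh1 UMIs of each fibre droplet; right panel, the percent of typed droplets by dominant myosin in each library. Most droplets lie along 1 axis, and Myh4-dominant droplets made up 58.3%, 82.9% and 68.5% of those typed.

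The typed droplets differed in the genes known to go with each fibre type. In old PBS all 11 measured genes of the list of oxygen, lipid and mitochondrial genes were higher in Myh1-dominant than in Myh4-dominant droplets, with a median log2 ratio of 1.31 against -0.03 over all 1913 genes measured, where 15.6% of genes were higher and 13.9% lower with an interval that leaves out 1. In old rMETRNL 7 of 9 were higher (median 0.59), where 19.1% and 13.7% of 754 genes were higher and lower. In young PBS 5 of 8 were (median 0.69), against a median of 0.16 over all 293 genes measured, of which 20.5% were higher and 11.6% lower. The list of fast isoforms, 12 genes, was lower in 12, 10 and 12 cases, with medians of -0.69, -0.34 and -0.43. Tnnt3 and Mylpf, on which the rule selected, are among these 12, so this count is a description. The types were set from the same droplets, and these contrasts describe them.

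Mb, the oxygen carrier myoglobin, stood at 5597 CPM in Myh1-dominant and 532 in Myh4-dominant droplets of young PBS, a ratio of 10.53 (7.32 to 15.6). In old PBS it stood at 8875 against 1113 CPM, a ratio of 7.98 (7.37 to 8.63), and in old rMETRNL at 5872 against 1289 CPM, a ratio of 4.55 (3.96 to 5.25). Fabp3, a fatty acid carrier, had ratios of 2.97, 4.37 and 3.63, and the mitochondrial creatine kinase Ckmt2 had 2.07, 4.63 and 5.63. Ankrd2, a stretch-responsive protein of the sarcomere, had 5.86, 8.22 and 11.8. Pvalb went the other way, at 2102 against 6568 CPM, 1775 against 6469 and 1788 against 8258, or ratios of 0.320, 0.274 and 0.217. Actn3, the alpha-actinin of the fastest fibres, had 0.462, 0.329 and 0.353, and Mybpc2, the fast myosin-binding protein C, had 0.294, 0.382 and 0.339. For each of these 7 genes the ratio lay on the same side of 1 in all 3 libraries. Myh1-dominant droplets held more RNA in old PBS, with a median of 2949 UMIs against 2298.

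Genes of fibre atrophy and the muscle regulator Myf6 were higher in the fibre droplets of old PBS than in those of young PBS. A gene was called where its CPM differed at least 2-fold between 2 libraries with an interval that leaves out 1, among genes with at least 50 UMIs in the 2 together. By this rule 3.17% of 2237 genes were higher in old PBS (71 genes) and 1.88% lower (42 genes), and the median log2 ratio of all genes was -0.02. Of the 13 listed atrophy genes 7 could be measured, of which 5 were higher and none lower, with a median log2 ratio of 1.73. The gene list was chosen with earlier results of these data known. Of its called members, Trim63 was nearly absent from other cells, whereas Cdkn1a, Mt1 and Mt2 were higher there than in fibre droplets.

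Trim63 (GRCm38 chr4:134315120-134329629, plus strand) encodes MuRF1, a ubiquitin ligase that marks sarcomere proteins for breakdown. It had 17, 587 and 75 UMIs, or 129 CPM (75.4 to 207), 488 (449 to 529) and 187 (147 to 234), while other kept cells held 1.12, 1.70 and 0.519 CPM. The ratio of old PBS over young PBS was 3.77 (2.34 to 6.52), and it was 4.03 without the droplet with most Trim63 UMIs in each library. UMIs were found in 8 of 30, 143 of 347 and 35 of 109 fibre droplets. After thinning to 1000 UMIs it was found in 3.33% (0.0844 to 17.2), 24.6% (20.2 to 29.5) and 13.0% (7.27 to 20.8), against at most 0.2% of other cells, so old PBS was highest at equal depth, though the interval of young PBS is wide.

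Fbxo32 (GRCm38 chr15:58175879-58214932, minus strand) encodes atrogin-1, the other ubiquitin ligase classed with Trim63. It stood at 60.9 CPM (26.3 to 120.0), 273 (244 to 304) and 164 (127 to 209), with a ratio of old PBS over young PBS of 4.48 (2.25 to 10.5). Other cells held it at 46.1, 110.1 and 60.4 CPM, and after thinning 6.67%, 22.0% and 12.04% of fibre droplets had a UMI against 3.8%, 7.2% and 4.8% of other cells. Gadd45a, a stress gene linked to denervation and atrophy, had 6, 185 and 12 UMIs and a ratio of 3.37 (1.52 to 9.30). Cdkn1a, the cell cycle inhibitor p21, had 4, 165 and 11 UMIs and a ratio of 4.51 (1.73 to 16.7). Its level of 30.4, 137 and 27.4 CPM lay below the 300.1, 386 and 331 CPM of other cells, and at equal depth a UMI was found in 3.33%, 8.70% and 3.70% of fibre droplets against 25.2%, 32.8% and 30.4% of other cells. The metallothioneins Mt1 and Mt2, which bind zinc, had ratios of 2.49 (1.68 to 3.84) and 3.51 (1.75 to 8.22) at levels below those of other cells. Mt3, by contrast, stood at 60.9, 317 and 114 CPM against 3.68, 4.22 and 4.21 in other cells, with a ratio of 5.20 (2.61 to 12.1).

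Myf6, a myogenic factor that stays on in adult fibres, had 13, 437 and 103 UMIs, or 98.9 CPM (52.7 to 169), 363 (330.1 to 399) and 256 (209 to 311), against 0.238, 1.25 and 0.284 in other cells. Its ratio of old PBS over young PBS was 3.67 (2.13 to 6.95), the only called gene of the 4 measured of the list of myogenic regulators. Mss51, a mitochondrial regulator of fast muscle, stood at 38.1, 274 and 219 CPM, a ratio of 7.21 (3.06 to 22.4). Pdk4, which turns off the use of glucose carbon in mitochondria, stood at 38.1, 156 and 164 CPM, a ratio of 4.09 (1.72 to 12.7). Both stood high in old rMETRNL too. Ttn, the giant spring protein titin, stood at 639, 1462 and 2090 CPM with a ratio of 2.29 (1.84 to 2.88). Ryr1, the calcium release channel, had a ratio of 2.71 (1.45 to 5.72), but 113 of its 248 UMIs in old PBS lay in 1 droplet, and without the top droplets the ratio was 1.68.

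Fos, Jund, Atf3, Actc1 and Myl4 stood lower in old PBS than in young PBS. Of 12 immediate early genes 8 were measured, 3 were lower and none higher, and all 8 ratios were below 1, with a median log2 of -0.66 that was -0.23 without the top droplets. Fos stood at 205, 65.7 and 114 CPM (ratio 0.320, 0.204 to 0.515), Jund at 183, 69.0 and 67.2 CPM (0.378) and Atf3 at 137, 47.4 and 52.3 CPM (0.346). Of 11 measured heat shock and muscle stress genes 2 were lower and none higher, with 3 ratios above 1 and a median log2 of -0.38 that was 0.16 without the top droplets. Hspa1a stood at 236, 59.9 and 129 CPM, a ratio of 0.254, or 0.559 without the top droplets, and the ratio of Hsp90aa1 was 0.437 but 1.12 without them. Other kept cells held Hspa1a at 1337, 776 and 1444 CPM. Of the 6 developmental sarcomere isoforms 3 were measured and 2 were lower. Actc1, the cardiac actin used by young fibres, stood at 335, 109.8 and 269 CPM, a ratio of 0.328 (0.231 to 0.472). Myl4, the embryonic light chain, stood at 335, 123 and 44.8 CPM, a ratio of 0.368. Myoz2, a slow-fibre Z disc protein, stood at 190.3, 94.0 and 219 CPM, a ratio of 0.494 (0.318 to 0.795).

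None of the 12 fast isoforms, 16 measured glycogen and glycolysis genes, 11 measured oxygen, lipid and mitochondrial genes or 10 thin filament genes was called between old PBS and young PBS, and their median log2 ratios were -0.07, -0.07, -0.18 and 0.00. At 3.17% and 1.88% over all genes, counts of 0 in lists of this size are near the background. The fast list also holds the rule genes Tnnt3 and Mylpf and the thin filament list Acta1 and Tnnt3, whose levels the rule partly sets. The fast list holds no myosin heavy chain gene. Of 11 thick filament genes 2 were higher in old PBS, the rule gene Myh4 and Myh2, of which 1 droplet gave 128 of 151 UMIs. Of 15 measured Z disc and titin genes 1 was higher and 1 lower. Of the calcium handling list 2 of 16 were higher, Ryr1 and Sln, of which 1 droplet of old PBS gave 113 of 248 and 1030 of 1083 UMIs. Of the macrophage and progenitor markers 0 of 9 and 0 of 5 measured were called, with medians of 0.44 and 0.57. Without the 5 deepest fibre droplets these medians were -0.27 and 0.13, so the direction of the macrophage median turned, as it did with 5 added to each count (-0.065). Among genes at least 10-fold higher in fibre droplets than in other kept cells 298 were measured, of which 19 were higher (6.38%) and 6 lower (2.01%). That fold was taken on fibre droplets pooled over the libraries, most of them from old PBS. Genes high in old PBS pass it more easily, so these counts are a description. Of the 71 higher genes 66 were still called without the top droplet of each library, but of the 42 lower genes only 20 were. The number of higher genes is not stable, since 157 were called in all without those droplets, against 20 lower.

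Trim63, Gadd45a and Mt3 were lower in old rMETRNL than in old PBS. By the same rule 0.937% of 2561 genes were higher in old rMETRNL than in old PBS (24 genes) and 2.42% lower (62 genes), with a median log2 ratio of 0.04. The list of atrophy genes had 7 measured members, of which none was higher and 3 lower, with a median log2 ratio of -0.74. Since old PBS stands in both contrasts, a value that is high there by counting or by library moves both.

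Trim63 in old rMETRNL was 0.382 times its level in old PBS (0.296 to 0.487), and 0.365 times without the top droplets. Fbxo32 was lower by less than 2-fold, with a ratio of 0.602 (0.455 to 0.786). Gadd45a stood at 45.7, 154 and 29.9 CPM, a ratio of 0.194 (0.0985 to 0.347), and Cdkn1a had 0.199, Mt2 0.489 and Mt3 0.361 (0.260 to 0.491). Trim63 was also lower in old rMETRNL within each band of depth, where no intervals were taken. In droplets with under 1500 UMIs it stood at 37.8 CPM against 697 in old PBS (21 and 78 droplets). From 1500 to 3000 UMIs it stood at 153 against 329 (45 and 140 droplets). From 3000 to 6000 it stood at 176 against 487 (32 and 84), and above 6000 at 251 against 546 (11 and 45). With so few droplets in a band, the size of each gap is uncertain. The sums of macrophage, progenitor, endothelial and tenocyte markers were also lower in old rMETRNL, as given above. Those of dendritic cell, neutrophil and T and NK cell markers were not. Of the measured macrophage and progenitor markers 1 of 9 and 1 of 5 were called lower. The part of other cells' RNA was not tested.

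Other lists had called members in old rMETRNL over old PBS, some of them on both sides. Of 16 calcium handling genes 3 were lower (Cacng1, Ryr1 and Sln) and 1 higher (Sypl2), but 1 droplet of old PBS gave 113 of 248 UMIs of Ryr1 and 1030 of 1083 of Sln, and the ratio of Sln was 3.45 at a 20% rule level. Of 3 measured developmental sarcomere isoforms 2 were lower (Myl4 and Tnnt2) and 1 higher (Actc1), and of 3 measured genes of the denervation list 2 were lower (Chrna1 and Gadd45a) and none higher. Cacng1, a subunit of the calcium channel that senses voltage, stood at 312, 477 and 226 CPM, a ratio of 0.474 (0.376 to 0.593). Chrna1, the acetylcholine receptor subunit that spreads over denervated fibres, had 2, 49 and 7 UMIs and a ratio of 0.427 (0.163 to 0.949). Ankrd1, a stress-induced ankyrin repeat protein, stood at 190.3, 159.7 and 47.3 CPM, a ratio of 0.296 (0.174 to 0.475), and Dupd1, a phosphatase of muscle, at 83.7, 129.7 and 44.8 CPM, a ratio of 0.345 that was 1.15 at a 20% rule level. Myl4 had a ratio of 0.364. Tnni1, the slow inhibitory troponin, had 0.483, but its direction is not settled, since the ratio was 0.689 without the top droplets, 1.30 at a 5% rule level, 1.49 with CPM averaged over droplets and 1.72 without the 5 deepest fibre droplets. Tnnt2, the cardiac troponin T of young fibres, had 0.479, but 1.29 with CPM averaged over droplets and 1.14 without the 5 deepest. Myf6, Mss51 and Pdk4 were not called, with ratios of 0.705 (0.563 to 0.876), 0.798 (0.623 to 1.01) and 1.06 (0.785 to 1.41).

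Ankrd2, Ckmt2, Myoz2 and Actc1 were among the genes that were higher in old rMETRNL than in old PBS. Ckmt2 was the called member among 5 phosphagen genes, and 0 of 16 measured glycogen and glycolysis genes were called. Ankrd2 stood at 274, 145 and 383 CPM, a ratio of 2.65 (2.12 to 3.31), and Ckmt2 at 624, 344 and 732 CPM, a ratio of 2.12 (1.82 to 2.47) that was 1.65 without the top droplets. Myoz2 had a ratio of 2.33 (1.74 to 3.11) and Actc1 of 2.45 (1.88 to 3.18), so the levels of both were near those of young PBS. Popdc2, a cyclic AMP-binding membrane protein, had 9, 27 and 28 UMIs and a ratio of 3.103 (1.76 to 5.47). Sypl2, a protein of the triad membrane, had 2.07 (1.48 to 2.87), and the phosphatase gene Dusp26 had 2.22 (1.33 to 3.69). Hspa1a had 2.16 (1.48 to 3.13). Of the list of oxygen, lipid and mitochondrial genes 1 of 13 measured was called, Ckmt2, although 11 ratios lay above 1, with a median log2 of 0.35 that was 0.15 without the top droplets.

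**Figure D5:**
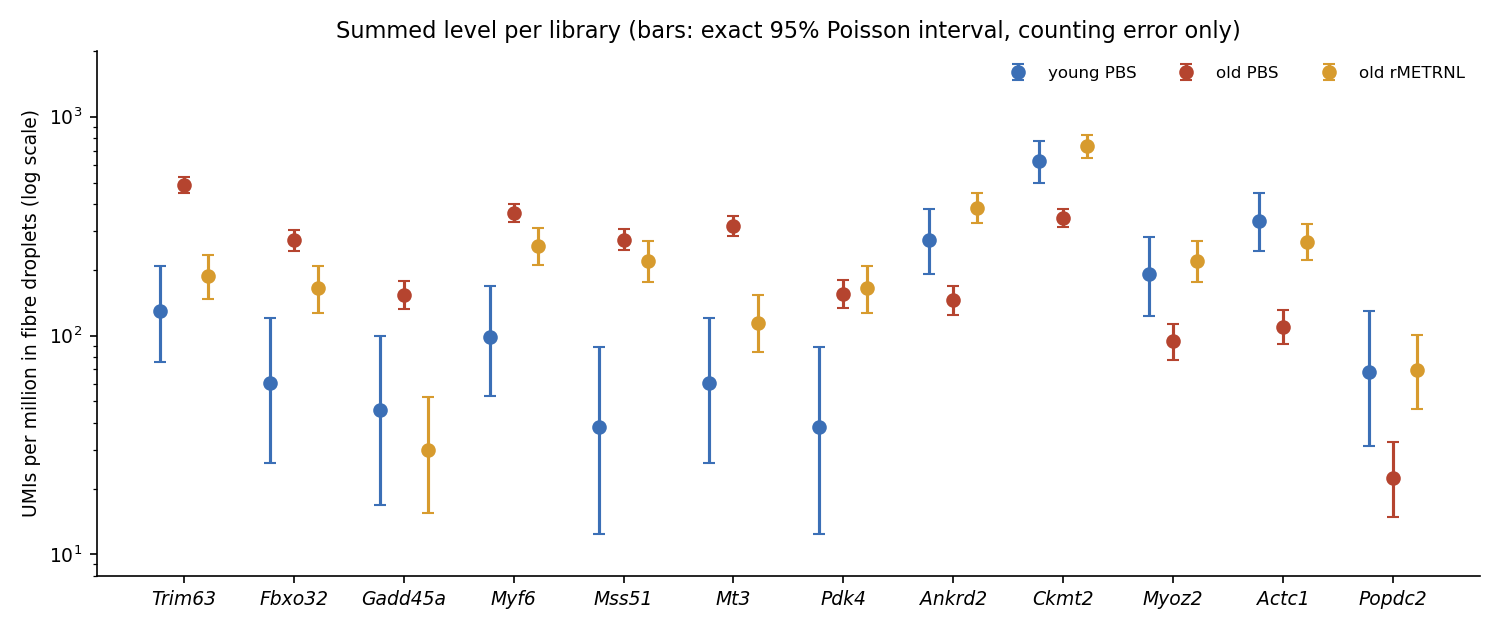
Level in CPM of 12 genes summed over the fibre droplets of each library, with exact 95% Poisson intervals for counting error only. Trim63 stood highest in old PBS at 488 CPM, whereas Ankrd2 stood lowest there at 145 CPM.

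No member was called between old rMETRNL and old PBS for the 12 fast isoforms, the 16 measured glycogen and glycolysis genes, the 10 thin filament genes or the 11 thick filament genes, with median log2 ratios of -0.04, 0.17, 0.12 and -0.01. At 0.937% and 2.42% over all genes few or no calls are expected in lists of this size, so these counts are near the background, and these lists again hold rule genes, the thick filament list among them with Myh4 and Mylpf. Of the 322 measured genes at least 10-fold higher in fibre droplets than in other cells, 9 were higher (2.80%) and 14 lower (4.35%). These genes were again picked on pooled fibre droplets, mostly of old PBS, so the counts are a description. Without the top droplet of each library 16 of the 24 higher and 54 of the 62 lower genes were still called.

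Titin, Myf6, Mss51 and Pdk4 were among the genes that were higher in old rMETRNL than in young PBS. Of 1070 genes 1.78% were higher in old rMETRNL (19 genes) and 1.12% lower (12 genes). Mss51 had a ratio of 5.75 (2.37 to 18.2), Pdk4 of 4.32 (1.76 to 13.7), Myf6 of 2.59 (1.45 to 5.03) and Fbxo32 of 2.70 (1.29 to 6.51), whereas Trim63 had 1.44 (0.844 to 2.61) and was not called. Of the 6 measured atrophy genes only Fbxo32 was called. Ttn had 3.27 (2.61 to 4.14), or 2.58 without the top droplets, and Lmod2, which sets the length of thin filaments, had 2.54 (1.27 to 5.79). Ldhb, the lactate dehydrogenase subunit of oxidative tissue, had 3.27 (1.42 to 9.26). Of the 12 lower genes 3 were still called without the top droplets, where 39 higher and 4 lower genes were called in all. Young PBS had only 30 fibre droplets, and this limits both contrasts with it.

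The differences were also taken within Myh4-dominant and Myh1-dominant droplets, because the balance of types differed between libraries. In Myh4-dominant droplets Trim63 stood at 219, 577 and 162 CPM, with ratios of 2.64 (1.56 to 4.85) for old PBS over young PBS and 0.281 (0.196 to 0.393) for old rMETRNL over old PBS. In Myh1-dominant droplets it stood at 48.9, 113 and 209 CPM, and the second ratio was 1.84 (0.975 to 3.50), so that the lower level in old rMETRNL was seen in the Myh4-dominant droplets. Whether the 2 types differ was not tested. Fbxo32 showed the same pattern, with ratios of 0.521 (0.358 to 0.739) and 1.29 (0.741 to 2.21) for old rMETRNL over old PBS. So did Myf6, with 0.494 (0.355 to 0.672) and 1.84 (1.11 to 3.04), where the whole set had given 0.705.

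Other genes differed within Myh4-dominant droplets. Mt3 stood at 46.9, 376 and 132 CPM there, Gadd45a at 62.5, 183 and 30.7 CPM and Mss51 at 62.5, 332 and 373 CPM. For old rMETRNL over old PBS in these droplets, the ratio of Cacng1 was 0.401 (0.293 to 0.538), that of Actc1 was 3.02 (2.26 to 4.03), and that of Popdc2 was 3.46 (1.70 to 6.95). In Myh1-dominant droplets, with fewer UMIs, the same ratio was 0.841 for Mt3 (0.259 to 2.42), for Gadd45a (0.226 to 2.70) and for Cacng1 (0.493 to 1.40), 1.40 for Popdc2 (0.338 to 5.51) and 3.08 for Actc1 (1.05 to 10.2), and none but the last left out 1. In contrast, Ankrd2 stood at 62.5, 45.3 and 57.0 CPM in Myh4-dominant droplets, a ratio of 1.26 (0.620 to 2.39), and at 367, 372 and 672 CPM in Myh1-dominant droplets, a ratio of 1.80 (1.28 to 2.54). Ckmt2 likewise had 1.33 (0.982 to 1.79) and 1.62 (1.30 to 2.02), and Myoz2 had 1.36 (0.236 to 5.43) and 1.58 (0.936 to 2.66), where the intervals no longer left out 1. The ratios of these 3 genes over all fibre droplets were 2.65, 2.12 and 2.33, and the part of the balance of types in them was not tested.

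Csrp3, a muscle LIM protein of the Z disc, differed widely but rested on few droplets. It had UMIs in 7, 20 and 19 fibre droplets and stood at 1104, 164 and 475 CPM, with 117 of 145, 131 of 197 and 90 of 191 UMIs in 1 droplet of each library. Its ratio was 0.148 for old PBS over young PBS, or 0.252 without the top droplets, and 2.90 for old rMETRNL over old PBS, or 4.62 without them. Between old rMETRNL and young PBS the ratio went from 0.431 to 1.16. In Myh1-dominant droplets the ratio was 6.06 (3.37 to 11.6) for old rMETRNL over old PBS and 0.237 (0.106 to 0.529) for old PBS over young PBS. In Myh4-dominant droplets these ratios were 0.208 (0.0820 to 0.440) and 1.57 (0.705 to 4.37), but the deepest droplet of old PBS gave 131 of the 137 UMIs there, so no direction is read from them.

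A few fibre droplets with unusual depth or contents set the values of some genes. The deepest, in old PBS, held 66393 UMIs and 5501 genes, or 5.52% of the UMIs of that library's fibre droplets, with 11.8% from rule genes. It had 610 UMIs of Myh4 and 234 of Myh1, and it gave 1030 of the 1083 UMIs of Sln, an inhibitor of the calcium pump, and 139 of the 170 of Tnnt1, the slow troponin T. Another droplet of old PBS, with 19677 UMIs, gave 205 of the 314 UMIs of Myl3, the slow light chain, and 128 of the 151 of Myh2. Each of these 4 genes met the call rule in at least 1 contrast and is counted there, but no library difference in them is read from the sums. The same holds for Malat1, of which 59 of 86, 1153 of 1673 and 56 of 203 UMIs lay in 1 droplet. In old rMETRNL 72 of the 73 UMIs of the odorant receptor gene Olfr655 lay in 1 droplet.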

How the data were processed

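Muscle cell suspensions of 3 groups were profiled on the 10x Genomics droplet platform, with 1 library per group. The authors deposited raw UMI counts for 32285 features per cell barcode. Per the submitters' processing notes these were made with Cell Ranger (5.0.0 and 3.1.0 are both named) on mm10, and the study's methods name a version that differs from the file header. The young PBS library held 12168 barcodes and 218059089 UMIs, the old PBS library 12568 and 179295668, and the old rMETRNL library 14012 and 228966697. Features with a repeated symbol were summed by symbol. Genes were placed by ID in GENCODE M21 (99.6% matched), and the promoters come from RefSeq.

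Kept cells had at least 500 genes and under 10% mitochondrial UMIs, and fibre droplets were taken by the rule given above. The members, gene lists and comparisons were chosen with earlier results of these data known. UMIs were summed over the fibre droplets of a library and expressed as CPM. Levels have exact Poisson, shares exact Clopper-Pearson and ratios exact conditional 95% intervals, and none covers the spread between mice. A share of 0 is given with the limit that 3 counts allow. Shares of droplets with a UMI were compared after thinning to 1000 UMIs, which left out 0, 2 and 1 fibre droplets and used 500 sampled other cells per library. Doublet scores came from Scrublet (scanpy 1.11.5), whose automatic threshold marked no barcode, so the highest scores were marked at 0.8% per 1000 barcodes. Named genes are all genes of the 34 lists, the 15 highest levels outside the rule, the 6 largest and 6 smallest called ratios per contrast over all genes and over fibre-enriched genes (at least 10-fold over other kept cells), and the 10 largest enrichments. The text gives those that carry a group. Alternatives changed the rule level, the filters, the UMI minimum and the droplets included. Python 3.11.15, anndata 0.12.19, pandas 2.3.3, scipy 1.17.1, numpy 2.4.6 and matplotlib 3.10.9 were used, and the statistics were tested on simulated data.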

Additional observations from a re-analysis of the deposited data

How the results depend on the processing

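With 1 library per group no replicate could be left out. No paired analysis was possible because each group has 1 library. Shares, depth, types, gene counts and list medians were recomputed under each alternative. Of these values 803 stayed within set limits, 57 moved further and 3 reversed. The limit was the interval of the main value, or a fixed fold for gene counts. A median or ratio counted as reversed only if its main interval lay on 1 side of no change. Others that changed sign, such as a glycolysis median, are counted as moved or within limits. All 59 stayed under a mitochondrial limit of 20%, under either other Myog limit, with slow genes added to the rule, and without doublet calls. Young PBS had 30 fibre droplets, which limits every value that uses it.

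At a 5% rule level the share in old PBS was 3.88%, old PBS over young PBS had 166 higher genes and medians of -0.17 (fast isoforms) and 1.36 (macrophage markers), and old rMETRNL over old PBS had 180 lower genes, medians of -0.14 (immediate early genes) and -0.98 (macrophage), and a Tnni1 ratio of 1.30. At 20%, young PBS had no members, so a share of 0%, and the shares of old PBS and old rMETRNL were 0.127% and 0.0313%. The median UMI count in old PBS was then 5999, Myh4 was dominant in 100% of typed droplets in both, and old rMETRNL over old PBS had 3 higher and 7 lower genes, a calcium handling median of 0.39, and ratios that turned for Sln (3.45), Malat1 (4.31), Ms4a7 (1.73), Dupd1 (1.15) and Mybph (1.73). With at least 200 genes the shares were 0.380%, 3.9003% and 1.16% and the median UMI counts 1786, 1734 and 1852. With at least 1000 genes they were 0.136%, 1.26% and 0.321% and 5364, 5194 and 5360, with Myh4 dominant in 77.4% in old PBS, medians of -0.086 (oxygen, lipid and mitochondrial, old PBS over young PBS) and -0.18 (calcium handling, old rMETRNL over old PBS), and 7 lower genes in old rMETRNL over young PBS. Under 5% mitochondrial UMIs the share in old PBS was 3.60%, and with dominance at 80% Myh4 was dominant in 76.3% there.

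When CPM was averaged over droplets, the macrophage median of old PBS over young PBS was 0.046 and Myh2 was 0.923, and for old rMETRNL over old PBS the immediate early median was -0.13, Tnni1 1.49 and Tnnt2 1.29. At a minimum of 20 UMIs the counts were 79 lower (old PBS over young PBS), 79 higher and 124 lower (old rMETRNL over old PBS), and 55 higher and 27 lower (old rMETRNL over young PBS). At 200 UMIs they were 24 and 3, 6 and 11, and 2 and 2. Without the 5 deepest fibre droplets, old PBS over young PBS had medians of -0.27 (macrophage) and 0.13 (progenitor) and Myh2 at 0.806. Old rMETRNL over old PBS had 41 lower genes, Tnni1 at 1.72 and Tnnt2 at 1.14, and old rMETRNL over young PBS had medians of 0.036 (immediate early) and -0.086 (macrophage) and Csrp3 at 1.13. With 5 added to each count the macrophage and progenitor medians of old PBS over young PBS were -0.065 and 0.16.

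An alternative chosen after seeing the data left out, for each gene, the droplet with most of its UMIs in each library. Old PBS over young PBS then had 157 higher and 20 lower genes, a glycolysis median of 0.083, Myh2 at 0.472 and Hsp90aa1 at 1.12. Old rMETRNL over young PBS had 39 higher and 4 lower genes, an immediate early median of -0.12, Csrp3 at 1.16, Hsp90aa1 at 1.18 and Fabp4 at 1.10. The cause of these shifts was not tested.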

Other observations

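Several abundant fibre genes stood lower in old PBS than in young PBS by less than 2-fold. In fibre droplets Atp2a1, the calcium pump of fast fibres, stood at 4932, 3247 and 3108 CPM in the order used above, a ratio of 0.658 (0.606 to 0.716) for old PBS over young PBS and 0.957 (0.897 to 1.02) for old rMETRNL over old PBS. Casq1, which stores calcium in the reticulum, stood at 578, 313 and 378 CPM. The same ratios were 0.541 (0.421 to 0.701) and 1.21 (0.995 to 1.46) for it. Cryab, a small heat shock protein of the Z disc, had levels of 4422, 2572 and 3892 CPM, that is, 0.582 times (0.532 to 0.637) and 1.51 times (1.42 to 1.61). Without the droplet with most UMIs of each gene, the ratios of old PBS over young PBS were 0.761, 0.682 and 0.688. Tceal7, which was called, stood at 167, 52.4 and 69.7 CPM, a ratio of 0.313 (0.190 to 0.534).

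Transcripts of special regions of the fibre were sparse. The 9 genes of the neuromuscular junction list had 4, 71 and 30 UMIs in all fibre droplets together, or 30.4, 59.0 and 74.6 CPM, with 5, 1 and 3 of them at 0. The 4 genes of the myotendinous junction list had 25, 198 and 24 UMIs, of which Ankrd1 gave 25, 192 and 19. Of the denervation list 3 of 11 genes could be measured, and Runx1 had 1, 46 and 3 UMIs, below the minimum of 50 in every contrast. Ighm, an immunoglobulin gene, had 0, 86 and 22 UMIs, and Cxcl1, a chemokine gene, had 0, 59 and 13.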
